A study of Mus musculus with 8 samples.

Results

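The 44 genes described here encode the subunits of heterotrimeric G proteins and the proteins that switch them off. They were chosen by symbol and comprise 12 Gα genes, 5 Gβ genes, 10 Gγ genes and 17 genes of the regulator of G protein signaling (RGS) family. All 44 were found among the 27179 genes of the count table, each on 1 row. RNA sequencing was performed on neonatal cardiomyocytes (NCMs), the contractile cells of the newborn heart, isolated from C57Bl/6J mice on postnatal day 0. Dams had breathed filtered air (FA, 4 libraries) or diesel exhaust (DE, 4 libraries) from embryonic day 0.5 until shortly before birth, so the pups themselves were exposed only in utero. Per the study's methods, each library came from 1 male heart that was trimmed of atrial and vascular tissue, dissociated and held on a plate for fibroblasts to attach, with the cells left in suspension collected as NCMs. The FA libraries are numbered 2, 3, 4 and 6 and the DE libraries 1, 3, 5 and 7, and values are given in that order below. The labels do not say which pups shared a dam, so p-values measure the spread between these 8 libraries.

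Heterotrimeric G proteins carry the signal of adrenergic, muscarinic, endothelin and angiotensin receptors from the cell membrane into the cell. A receptor loads the Gα subunit with GTP, Gα separates from the Gβγ pair, and both act on enzymes and channels until Gα hydrolyses its GTP. RGS proteins speed that hydrolysis and so shorten the signal. In heart, Gα of the i class slows beating and inhibits adenylate cyclase, Gα of the q class activates phospholipase C, and Gβγ opens the GIRK potassium channel, built from the products of Kcnj3 and Kcnj5.

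Total counts ran from 17943024 to 39839737 per library. DE replicates 3 and 5 carry the prefix 12 in their names and the other 6 libraries the prefix 11, and the labels do not say what the prefix stands for. Cardiomyocyte markers summed to 66840 to 72490 CPM (counts scaled to a common library size) in FA and 57160 to 66870 CPM in DE, with 0 of the 7 markers at 0 in all libraries. Of these, Myh6 was called lower (-0.67 on the log2 scale, edgeR adjusted p = 0.00314) and Myh7 higher (0.53, edgeR adjusted p = 0.0157). Ttn had the lowest log2 fold change, -0.80, and was not called (edgeR adjusted p = 0.0562). Log2 fold changes were below 0 for 6 of the 7 (median -0.0606). An unadjusted p under 0.05 was found for 3, and DESeq2 called 3 (Myh6, Myh7 and Ttn). Summed fibroblast markers did not overlap between the groups, at 1332 to 2212 CPM in FA and 2445 to 4068 CPM in DE, and all 7 had log2 fold changes above 0 (median 0.64). Of the 7, edgeR called 2 higher, 5 had an unadjusted p under 0.05 and DESeq2 called 5. Of all tested genes, edgeR called 5.8%, 25.6% had an unadjusted p under 0.05 and DESeq2 called 10.9%. These are bulk samples, in which fewer cells of a type and less RNA per cell cannot be told apart.

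In the comparison of DE with FA, 3 of the 35 members with enough reads to test (8.57%, against 5.8% of all genes tested) passed an edgeR test with a difference of at least 25%: Gng11, Rgs11 and Rgs16, all higher in DE. Of these, the promoter of Rgs16 is shown because it is the one held in the RefSeq promoter table. The Rgs16 window, chr1:153740103-153740402 of GRCm38.p6 on the plus strand, holds 22 CpG dinucleotides in its 300 bases. Capitals mark an inverted CCAAT box (ATTGG), 2 overlapping GC boxes (GGGCGG, found here on the reverse strand as CCGCCC) and a TATA-like element (ATAAAA).
Rgs16: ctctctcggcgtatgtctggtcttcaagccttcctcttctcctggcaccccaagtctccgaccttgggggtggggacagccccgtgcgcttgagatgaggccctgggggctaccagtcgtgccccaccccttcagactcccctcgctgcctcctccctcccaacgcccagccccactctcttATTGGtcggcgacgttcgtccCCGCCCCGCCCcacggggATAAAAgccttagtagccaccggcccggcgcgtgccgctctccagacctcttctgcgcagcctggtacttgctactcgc
The hits begin 68 bases (CCAAT), 47 and 42 bases (GC boxes) and 29 bases (TATA-like) before the start site. The motifs were chosen after the sequence was seen and both strands were searched. Of the 32851 promoter windows in the table, 37.4% hold CCAAT, 35.7% hold the GC box and 18.5% hold ATAAAA, so each is a common feature and a description of the letters alone.

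To see which subunits these NCMs express, levels were compared between genes as CPM per kb of exon. The length used is that of all annotated exons of a gene. It can exceed the length of the transcript the cells make, so the orders and shares below are approximate. Gnai2, an inhibitory Gα, was the most abundant of the 12 Gα members in every library, at 131 ± 8.81 CPM per kb in FA and 163 ± 21.9 in DE (SD, n = 4 each). It made up 54.4 to 59.6% of the summed level of the 12 Gα members in FA libraries and 57.6 to 66.1% in DE libraries. Gnas, which encodes the stimulatory Gα, is not among the 12 and enters neither the order nor the sums, and it had 272573 counts over the 8 libraries against 76867 for Gnai2, not scaled by length. Gnai3, a close relative of Gnai2, followed at 29.3 ± 2.88 CPM per kb in FA. Gna13, a subunit of the G12 class, came next at 19.8 ± 1.93 CPM per kb, then Gna11 of the q class at 15.8 ± 0.808 CPM per kb. The next pair, Gnai1 at 12.5 ± 0.778 and Gna12 at 12.2 ± 0.687 CPM per kb in FA, differed by less than their spread. Gnaq, the other main q-class subunit, lay at 10.7 ± 1.96 CPM per kb, below Gna11.

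Of the Gβ genes, Gnb1 (96.1 ± 3.19 CPM per kb in FA) and Gnb2 (77.6 ± 13.3 CPM per kb), the general Gβ subunits, led the class. In each library Gnb1 held the larger share, 45.2 to 52.1% in FA and 45.4 to 53.2% in DE, against 37.4 to 44.5% and 37.6 to 45.2% for Gnb2. Gnb5, the Gβ that pairs with R7-type RGS proteins in place of Gγ, was at 16.04 ± 2.39 CPM per kb in FA, and Gnb4 was at 3.000 ± 0.339 CPM per kb. Gnb3, known from retinal cones, was the lowest at 0.753 ± 0.118 CPM per kb.

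Gγ subunits carry the lipid anchor of the Gβγ pair. Gng11 led the Gγ class in FA at 28.4 ± 4.96 CPM per kb, ahead of Gng5 (21.2 ± 3.61), Gng2 (16.3 ± 1.84) and Gng12 (13.8 ± 1.09). This order rests on exon lengths of 919 bases for Gng11 against 2765, 4390 and 4727 bases for Gng5, Gng2 and Gng12. In FA CPM not scaled by length, Gng11 (26.1) lay below Gng5 (58.7), Gng2 (71.7) and Gng12 (65.4). The share of Gng11 in the summed Gγ level was 28.9 to 35.03% in FA and 33.01 to 50.3% in DE, which overlap because of DE replicate 1. Among the RGS genes the levels were more even, and Rgs2, a regulator of q-class Gα, held 18.97 to 26.4% of the RGS level in FA and 19.2 to 27.1% in DE. In FA it stood at 9.33 ± 0.876 CPM per kb, followed by Rgs12 (7.10 ± 0.471), Rgs5 (6.21 ± 1.71) and Rgs3 (5.87 ± 0.273), and among these 3 Rgs5 differed from neither neighbour by more than its spread. Rgs16 held 9.87 to 13.2% of the RGS level in FA and 13.6 to 22.3% in DE, so its share did not overlap between the groups.

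**Figure D1:**
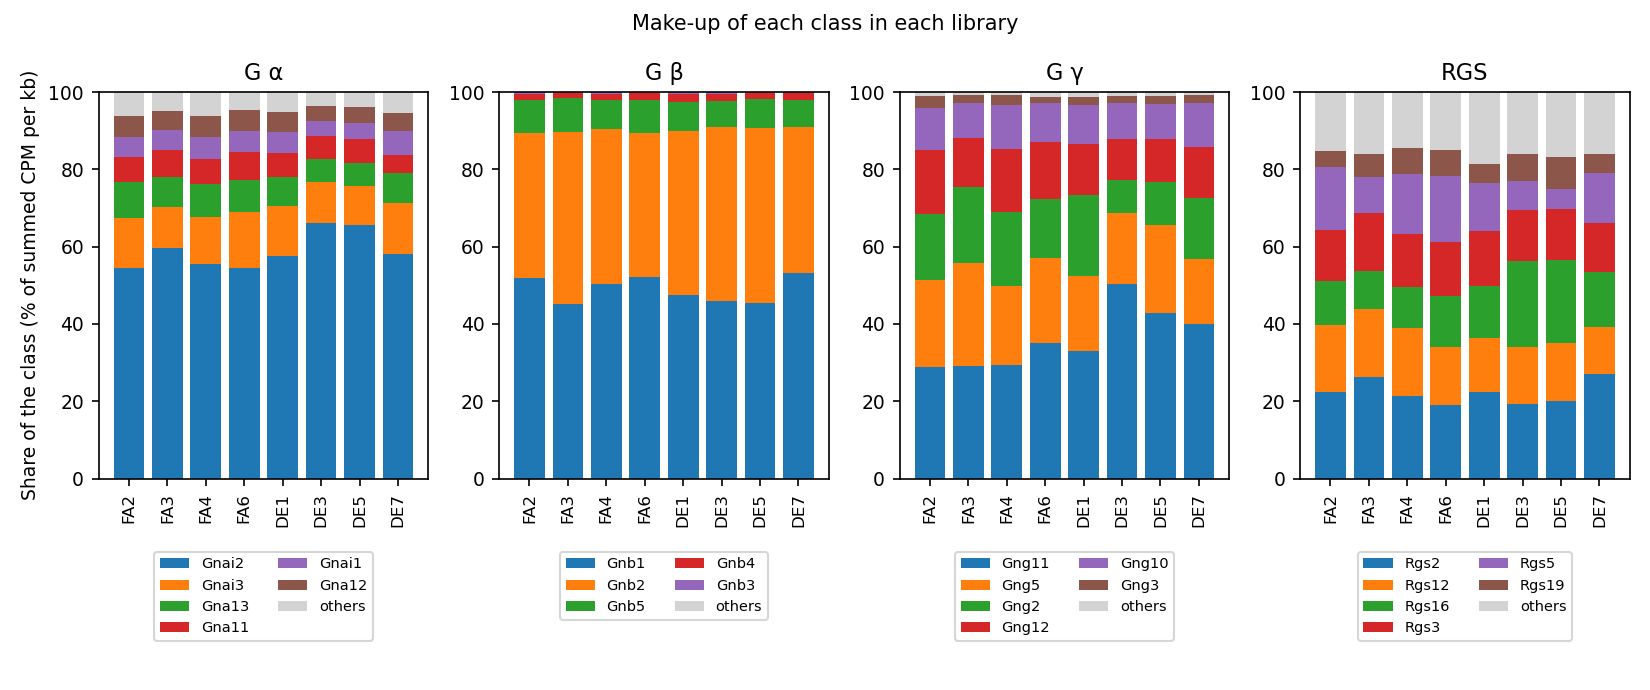
Share of the summed CPM per kb (%, vertical axis) held by each leading gene of the Gα, Gβ, Gγ and RGS classes in each library (horizontal axis, FA and DE replicates); grey is the sum of the other members. Gnai2 is the largest part of the Gα bar, which leaves out Gnas, in every library, while the Gng11 part of the Gγ bar ranges from 28.9% in FA to 50.3% in DE.

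Members that lie side by side in the genome could differ widely in level. Gna11 (chr10, 11897 counts over the 8 libraries) neighbours Gna15, which had 13 counts, and Gnaq (chr19, 12344 counts) neighbours Gna14, which had 71 counts. On chr1, Rgs2 (at chr1:143999338-144004149) had 6929 counts, and the nearby Rgs1 and Rgs18 had 49 and 13 counts. Each of these neighbour pairs thus combined a well-expressed gene with one too low to test.

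The comparison of DE with FA asks which of these transcripts changed in NCMs after in utero exposure to DE. A gene was called when the edgeR quasi-likelihood test gave a Benjamini-Hochberg adjusted p of at most 0.05 over all genes tested and the groups differed by at least 25%. The background of 5.8% is 868 of 14966 genes. Called higher were 3 members, against a background of 3.58%, and called lower were 0 (edgeR), against a background of 2.22%. Of the members 1 was lower at an unadjusted p under 0.05, and DESeq2 called 1 lower (Rgs6). At an unadjusted p under 0.05 there were 9 members, 25.7% of those tested, and 25.6% of all genes, nearly the same share. CPM values did not overlap between the groups for 8 of the tested members (22.9%), against 14.7% of all genes. Of these 8, 7 were higher in DE (background 7.43%) and 1 was lower (background 7.26%). In direction, 26 members were higher and 9 lower, and the median member stood at 0.14 on the log2 scale. Of all tested genes 50.5% were higher, and their median was 0.0037.

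**Figure D2:**
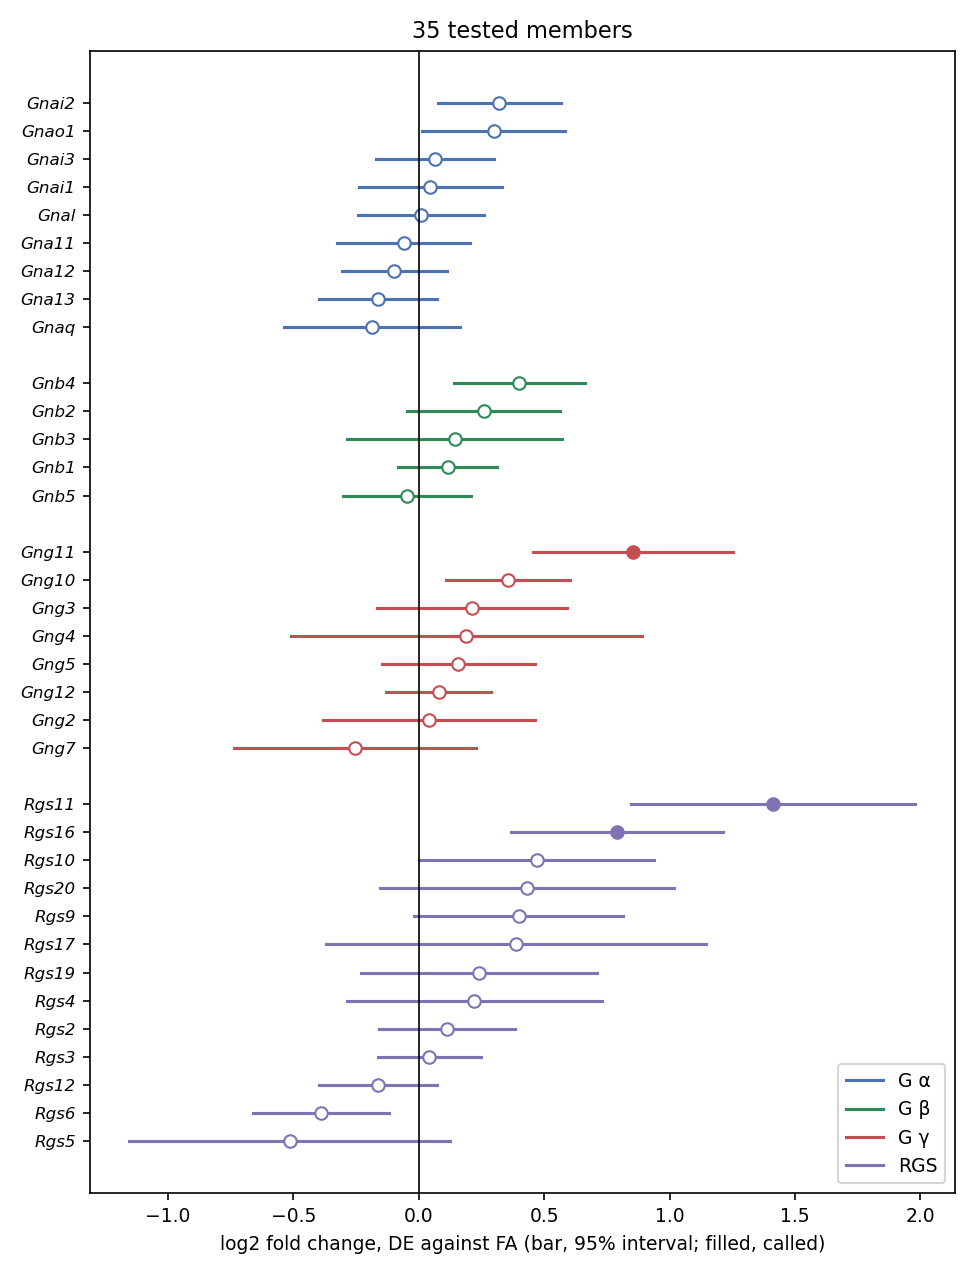
Log2 fold change of DE against FA (horizontal axis) for each of the 35 tested members (rows, grouped and coloured by class); points are edgeR estimates, bars 95% intervals, and filled points are called. The filled points are Gng11, Rgs11 and Rgs16, and most other intervals include 0.

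Gng11 encodes a Gγ subunit and lies at chr6:4003987-4008445 (GRCm38). Its normalized level was 22.7, 26.01, 23.1 and 32.6 CPM in FA and 33.9, 62.97, 47.8 and 43.8 CPM in DE. Every DE library lay above every FA library, with DE replicate 1 close to FA replicate 6 and DE replicate 3 the highest. The mean rose from 26.1 ± 4.56 to 47.1 ± 12.1 CPM (SD, n = 4 each). The fitted difference was 1.81-fold, with a log2 fold change of 0.85 ± 0.18 (SE) and an edgeR adjusted p of 0.0242. Within the prefix 11 libraries alone the log2 fold change was 0.57 (edgeR adjusted p = 0.114), a smaller difference that was no longer called. The DE mean was 38.8 CPM for the 2 libraries of prefix 11 and 55.4 CPM for the 2 of prefix 12. The call was also lost without FA replicate 2, 3 or 4 or DE replicate 3, where edgeR adjusted p ran from 0.0559 to 0.0848 and the log2 fold change stayed at 0.68 or more.

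Gng11 is known from many non-muscle cells, endothelial cells among them. The 8 endothelial markers summed to 968 to 1283 CPM in FA and 1048 to 1559 CPM in DE, with overlapping groups, 0 markers called (4 at an unadjusted p under 0.05; DESeq2 called Egfl7 and Emcn) and 0 of 8 at 0 in all libraries. The highest endothelial sum and the highest Gng11 level were both in DE replicate 3. The second highest Gng11 level was in DE replicate 5, whose endothelial sum, 1048 CPM, was the lowest of the DE group. Of the 8 markers 7 had log2 fold changes above 0, with a median of 0.27. Egfl7, named after its values were seen, was highest in the same 2 libraries as Gng11, at 61.7, 118, 91.2 and 87.5 CPM in DE against 50.5, 58.99, 53.95 and 72.9 CPM in FA. The other markers differed from Egfl7: within DE, Pecam1, Cdh5, Kdr, Tie1, Tek and Emcn were each lowest in replicate 5. Esam was lower only in replicate 1. The part of endothelial RNA in the Gng11 result was not tested.

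Rgs11, at chr17:26202527-26211324, encodes an R7-type regulator best known from retina. It was a low-abundance transcript, with 22, 16, 14 and 12 counts in FA libraries and 45, 67, 99 and 27 counts in DE libraries. In CPM these were 0.588, 0.797, 0.790 and 0.590 in FA and 1.36, 1.92, 2.47 and 1.44 in DE. All DE libraries were above all FA libraries by a clear gap. The mean rose from 0.691 ± 0.118 to 1.80 ± 0.511 CPM (SD, n = 4 each), and the fitted fold change of 2.66 was the largest among the tested members. The log2 fold change was 1.41 ± 0.26 (SE), with an edgeR adjusted p of 0.0126. Among prefix 11 libraries it was 1.03 (edgeR adjusted p = 0.0863), with DE means of 1.40 CPM for prefix 11 and 2.20 CPM for prefix 12. Of the 8 libraries left out in turn, only FA replicate 2 took the call away (edgeR adjusted p = 0.0604, log2 fold change 1.32).

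Rgs16, at chr1:153740353-153745468, belongs to the R4 type, small RGS proteins that act on i-class and q-class Gα. Normalized levels were 11.1, 9.12, 10.7 and 13.5 CPM in FA and 14.6, 25.7, 21.2 and 15.03 CPM in DE. The groups did not overlap, DE replicates 1 and 7 stood just above FA replicate 6, and DE replicates 3 and 5 were the highest. The mean rose from 11.1 ± 1.80 to 19.1 ± 5.34 CPM (SD, n = 4 each). The fitted difference was 1.73-fold, with a log2 fold change of 0.79 ± 0.19 (SE) and an edgeR adjusted p of 0.0377. The difference among prefix 11 libraries was 0.41 on the log2 scale (edgeR adjusted p = 0.223), with DE means of 14.8 CPM for prefix 11 and 23.5 CPM for prefix 12. The call was lost without FA replicate 2, 3 or 4 or DE replicate 3 or 5, at edgeR adjusted p from 0.0776 to 0.112. Exons of Rgs16 overlap those of Gm28513 on the opposite strand by 236 bases, and since the strand setting of the counting is not given in the sources used here, reads in that stretch cannot be told apart. Such an overlap of any length exists for 12 of the 44 members, Rgs16 included, and for neither Gng11 nor Rgs11.

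For all 3 called members, DE replicates 3 and 5 were the 2 highest of the 8 libraries. These are the 2 libraries of prefix 12, a prefix that no FA library has, so they have no FA library of their own prefix to be set against. In the fit with prefix as a term, which asks for the DE difference within prefix 11 while sharing the spread, the log2 fold change was 0.57 for Gng11, 1.04 for Rgs11 and 0.41 for Rgs16, with edgeR adjusted p of 0.0992, 0.0590 and 0.183. The summed fibroblast markers, which separated FA from DE too, were highest in DE replicate 1 (4068 CPM), the library in which each of these 3 members had its lowest DE level, and were lowest within DE in replicate 5 (2445 CPM). The part of fibroblast RNA in these 3 results was not tested.

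**Figure D3:**
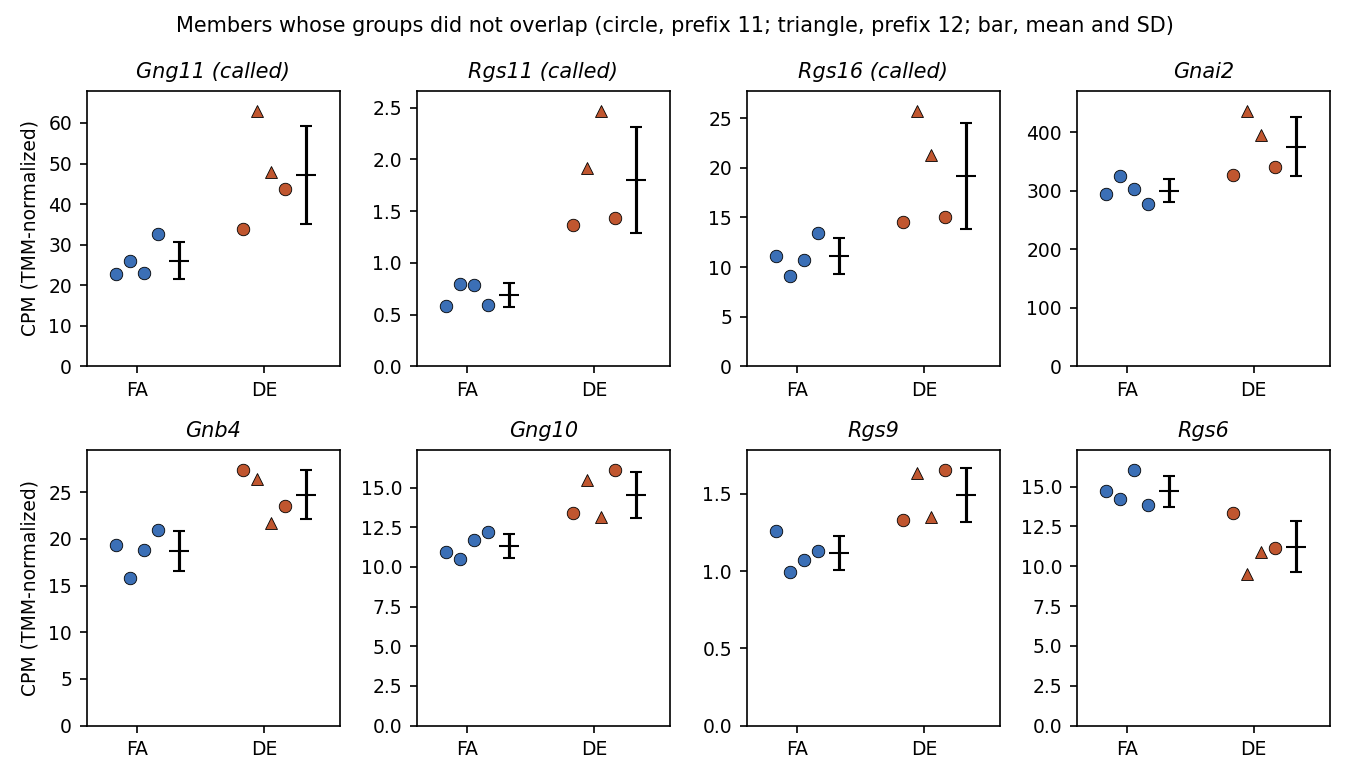
CPM (vertical axes, TMM-normalized, each starting at 0) of the 8 tested members whose FA and DE values did not overlap, 1 point per library; circles are name prefix 11, triangles prefix 12, and bars the mean and SD of 4 libraries. In the panels of Gng11, Rgs11 and Rgs16 the 2 triangles lie at the top of the DE group, and Rgs6 is the one panel with DE below FA.

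A further 5 members had separate groups without passing the test. Gnai2 was at 295, 326, 303 and 277 CPM in FA and 327, 436, 396 and 341 CPM in DE, where DE replicate 1 was barely above FA replicate 3. The mean was 300.3 ± 20.3 CPM in FA and 375 ± 50.4 CPM in DE, a log2 fold change of 0.32 ± 0.11 with an edgeR adjusted p of 0.107. DE libraries of prefix 11 averaged 334 CPM and those of prefix 12 averaged 416 CPM. Its interval, 0.0759 to 0.57 on the log2 scale, leaves room for a difference close to 0 or above the 25% limit.

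Gnb4, a Gβ subunit, was at 19.4, 15.8, 18.8 and 20.9 CPM in FA and 27.4, 26.4, 21.7 and 23.5 CPM in DE, and here the prefix 11 and prefix 12 libraries of DE were interspersed. The log2 fold change was 0.40 ± 0.12 (edgeR adjusted p = 0.0693). It was called by DESeq2 (adjusted p = 0.0272), by edgeR's likelihood ratio test and with library totals as the scale, and was 0.44 with prefix as a term (edgeR adjusted p = 0.112). Gng10, a Gγ subunit, was at 10.96, 10.5, 11.7 and 12.2 CPM in FA and 13.4, 15.5, 13.2 and 16.1 CPM in DE, with a log2 fold change of 0.36 ± 0.11 (edgeR adjusted p = 0.0842). It too was called by DESeq2 (adjusted p = 0.0424) and with library totals as the scale (edgeR adjusted p = 0.0499), and was 0.38 with prefix as a term (edgeR adjusted p = 0.163). Its value is uncertain, because 946 of its 1192 exonic bases overlap Gm20503 on the same strand and 71.5% of its 50-base words occur in that gene.

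Rgs6 and Rgs9 encode R7-type regulators like Rgs11. Rgs6, the R7 member known from the atrial and nodal response to acetylcholine, was at 14.7, 14.2, 16.03 and 13.8 CPM in FA and 13.4, 9.49, 10.9 and 11.1 CPM in DE. It was the one tested member with all DE libraries below all FA libraries, with DE replicate 1 nearest to FA. The log2 fold change was -0.39 ± 0.12 (edgeR adjusted p = 0.0858), and it was called by DESeq2 (adjusted p = 0.0457) and without DE replicate 1 (log2 fold change -0.49, edgeR adjusted p = 0.0378). With prefix as a term it was -0.26 (edgeR adjusted p = 0.352) and in the prefix 11 libraries only -0.26 (edgeR adjusted p = 0.385), with DE means of 12.3 CPM for prefix 11 and 10.2 CPM for prefix 12. Rgs9 was low, at 1.26, 0.997, 1.07 and 1.13 CPM in FA and 1.33, 1.64, 1.35 and 1.65 CPM in DE, with a log2 fold change of 0.40 ± 0.19 (edgeR adjusted p = 0.215).

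R7 proteins work with Gnb5 and, in atrial cells, close to the GIRK channel, so these transcripts were set side by side. Summed R7 levels were 2.71 ± 0.191 CPM per kb in FA and 2.86 ± 0.252 in DE (SD, n = 4 each), which differ by less than the spread. The make-up of that sum differed: Rgs6 held 73.6 to 75.4% in FA and 48.8 to 59.3% in DE, and Rgs11 held 10.7 to 14.96% and 21.9 to 40.1%. These shares were looked at after the values of Rgs6 and Rgs11 were known, and no test was run on them. Gnb5 was at 35.9, 44.99, 31.7 and 37.1 CPM in FA and 34.3, 36.7, 39.7 and 34.2 CPM in DE. Its groups overlapped throughout (log2 fold change -0.0456 ± 0.12, edgeR adjusted p = 0.834, with the sign turned when library totals alone set the scale).

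Kcnj5, which encodes a GIRK channel subunit and is no member, was at 89.7, 87.5, 93.6 and 79.6 CPM in FA and 59.5, 63.2, 62.8 and 69.3 CPM in DE. The groups were well apart and the prefix 12 libraries lay within the range of the prefix 11 libraries of DE. Kcnj5 fell from a mean of 87.6 ± 5.88 CPM to one of 63.7 ± 4.07 CPM (SD, n = 4 each), and its log2 fold change was -0.46 ± 0.0927 (edgeR adjusted p = 0.0196). Among prefix 11 libraries it was -0.45 (edgeR adjusted p = 0.0998), nearly the same size, and the call was lost without FA replicate 2 or 4 or DE replicate 3 (edgeR adjusted p = 0.0627 to 0.0781). Kcnj3, its partner subunit, was at 8.15, 6.13, 8.69 and 6.39 CPM in FA and 6.38, 3.47, 2.42 and 6.13 CPM in DE, with overlapping groups (log2 fold change -0.69 ± 0.28, edgeR adjusted p = 0.149). The 2 lowest Kcnj3 libraries were the 2 of prefix 12.

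**Figure D4:**
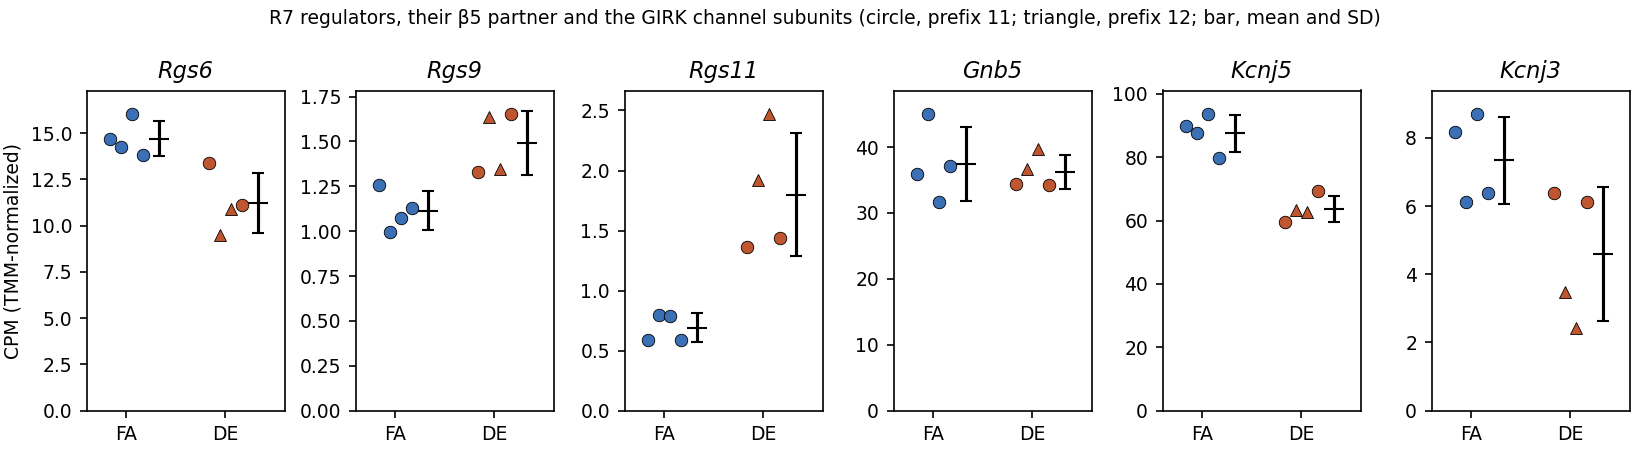
CPM (vertical axes, TMM-normalized, each starting at 0) of 3 R7 regulators, Gnb5 and the GIRK subunits Kcnj5 and Kcnj3 in each library; circles are name prefix 11, triangles prefix 12, bars the mean and SD of 4 libraries. Kcnj5 lies at 79.6 CPM or more in FA and 69.3 CPM or less in DE, Rgs6 is lower and Rgs11 higher in DE, and Gnb5 overlaps.

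Of the 9 Gα genes tested, Gnai2 included, edgeR called 0 (background 5.8%), 2 had an unadjusted p under 0.05 (background 25.6%) and DESeq2 called 0 (background 10.9%). The median log2 fold change of the class was 0.0097. Gnai3 was at 98.8, 82.8, 95.5 and 105 CPM in FA and 104, 98.9, 87.6 and 109.7 CPM in DE, interleaved throughout. Its interval of -0.17 to 0.30 on the log2 scale lies within a 1.5-fold difference either way. Gna13 was at 143, 116, 131 and 119 CPM in FA and 119, 111, 99.6 and 126 CPM in DE, lower on average but overlapping (log2 fold change -0.16 ± 0.11, edgeR adjusted p = 0.365). The q-class genes Gnaq (-0.19) and Gna11 (-0.0588, turned to 0.0152 with library totals) and the G12-class gene Gna12 (-0.0977) had log2 fold changes at or below 0 with edgeR adjusted p of 0.492, 0.789 and 0.547. Gnaq turned to 0.025 with prefix as a term. Gnao1, the i-class subunit abundant in neurons, went from 12.4 ± 2.02 to 15.3 ± 1.26 CPM with an edgeR adjusted p of 0.177, Gnai1 from 39.2 ± 2.44 to 40.5 ± 7.59 CPM, and Gnal, the olfactory stimulatory subunit, from 7.64 ± 0.394 to 7.67 ± 0.508 CPM.

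Of the 5 Gβ genes, 0 were called by edgeR's quasi-likelihood test (background 5.8%). An unadjusted p under 0.05 was found for 1 (background 25.6%), and DESeq2 called 1 (Gnb4, background 10.9%). Gnb1 was at 298, 311, 289.7 and 309 CPM in FA and 296, 339, 325 and 349 CPM in DE, with the lowest DE library inside the FA range. Its log2 fold change was 0.12 ± 0.0895 (edgeR adjusted p = 0.439). Gnb2 was at 170.2, 240.4, 181 and 174 CPM in FA and 209, 261, 254 and 194 CPM in DE, where FA replicate 3 stood apart from the other FA libraries and inside the DE range (log2 fold change 0.26 ± 0.14, edgeR adjusted p = 0.263). Gnb3 went from 1.39 ± 0.217 to 1.52 ± 0.210 CPM.

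Besides Gng11 and Gng10, the Gγ class held 6 tested genes, with log2 fold changes from -0.25 (Gng7) to 0.21 (Gng3) and edgeR adjusted p of 0.464 or more. Gng5 was at 53.02, 71.2, 48.7 and 61.96 CPM in FA and 60.2, 68.9, 76.7 and 55.9 CPM in DE, with overlapping groups. Gng12 was at 67.2, 58.1, 65.97 and 70.2 CPM in FA and 69.8, 68.04, 63.95 and 74.7 CPM in DE, again with overlap, and its interval of -0.13 to 0.29 on the log2 scale was narrow. Gng2 was at 64.8, 83.01, 71.9 and 67.3 CPM in FA and 103, 51.00, 59.03 and 82.5 CPM in DE. In DE the prefix 11 libraries of Gng2 averaged 92.6 CPM and those of prefix 12 averaged 55.02 CPM, on either side of the FA mean of 71.7 CPM, so the near-zero log2 fold change of 0.0409 ± 0.19 averages libraries that differed widely. Gng3 (858 counts in all), Gng7 (213) and Gng4 (124) were low.

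In the RGS class, the R4 genes beside Rgs16 were not called. Rgs2 was at 30.4, 33.9, 30.2 and 26.9 CPM in FA and 33.4, 30.8, 27.7 and 39.6 CPM in DE, with overlap (log2 fold change 0.11 ± 0.12, edgeR adjusted p = 0.598). Rgs5, a regulator known as a pericyte marker, was at 31.3, 16.7, 30.9 and 33.9 CPM in FA and 26.2, 17.3, 9.95 and 26.2 CPM in DE. Its log2 fold change was the lowest among the members, -0.51 ± 0.29, but FA replicate 3 was within the DE range (edgeR adjusted p = 0.290). The prefix 11 libraries of DE averaged 26.2 CPM and those of prefix 12 averaged 13.6 CPM. Smooth muscle and pericyte markers summed to 1176 to 1814 CPM in FA and 841 to 1287 CPM in DE, with 0 of 7 called (1 at an unadjusted p under 0.05; DESeq2 called Acta2) and 0 at 0 in all libraries. Acta2, which smooth muscle shares with immature cardiomyocytes, made up most of that sum (FA 1151 ± 277 CPM, DE 746 ± 132 CPM), while 5 of the 7 markers had log2 fold changes above 0 (median of the 7, 0.19). The pericyte markers Pdgfrb (0.19), Cspg4 (0.13) and Notch3 (0.20) were among those 5, with edgeR adjusted p of 0.526, 0.630 and 0.505. Their sign was opposite to that of Rgs5. Within FA, replicate 3 was lowest for Rgs5 and for each of these markers. Within DE, replicate 5 was lowest for Rgs5, Pdgfrb and Notch3, and replicate 7 for Cspg4. The part of these cells in the Rgs5 values was not tested. Rgs4, whose gene neighbours Rgs5 on chr1, went from 4.90 ± 1.22 to 5.75 ± 1.61 CPM, and its log2 fold change of 0.22 ± 0.23 had the opposite sign.

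**Figure D5:**
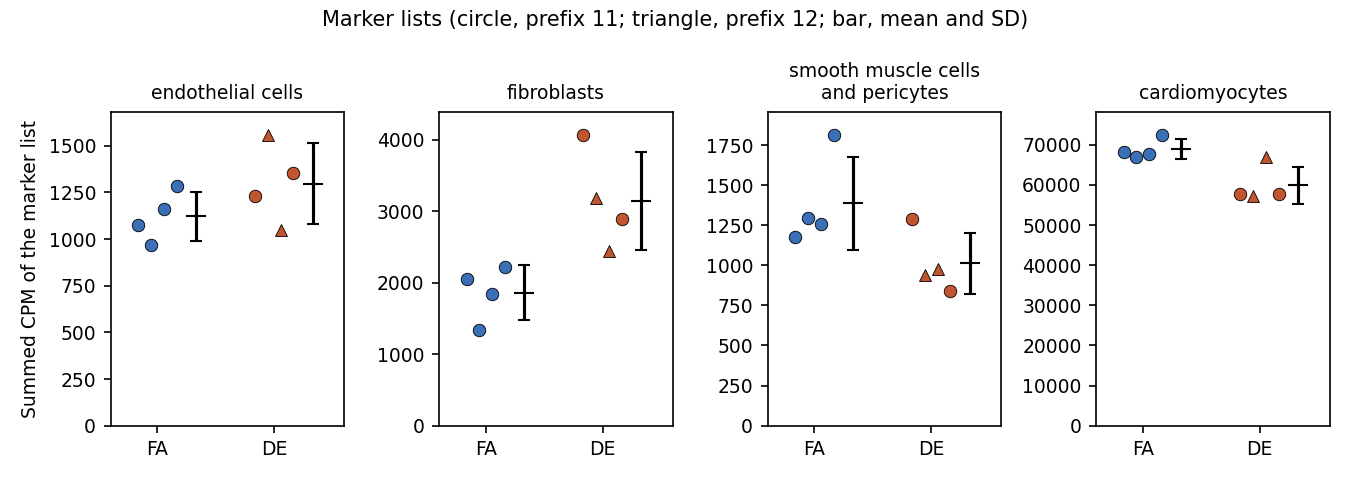
Summed CPM (vertical axes, each starting at 0) of marker lists for endothelial cells, fibroblasts, smooth muscle cells and pericytes, and cardiomyocytes in each library; circles are name prefix 11, triangles prefix 12, bars the mean and SD of 4 libraries. Fibroblast sums do not overlap between FA and DE, and the endothelial and the smooth muscle and pericyte sums do.

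Rgs12, a large multidomain regulator, was at 48.02, 45.4, 50.5 and 43.3 CPM in FA and 41.8, 48.3, 41.4 and 35.7 CPM in DE, lower on average but overlapping (log2 fold change -0.16 ± 0.11, edgeR adjusted p = 0.367). Rgs3 went from 45.97 ± 2.14 to 47.3 ± 3.84 CPM, with 11.4% of its 50-base words shared with Gm5763. Rgs10, a small regulator abundant in immune cells, went from 1.81 ± 0.395 to 2.46 ± 0.515 CPM (log2 fold change 0.47 ± 0.21, edgeR adjusted p = 0.194). Leukocyte markers summed to 12.3 to 18.7 CPM in FA and 15.7 to 26.4 CPM in DE, with 5 of 7 high enough to test, 0 called (2 at an unadjusted p under 0.05; DESeq2 called Cd68) and 0 at 0 in all libraries. The RZ-type genes Rgs17, Rgs19 and Rgs20 had log2 fold changes of 0.39 ± 0.35, 0.24 ± 0.21 and 0.43 ± 0.27, and edgeR adjusted p of 0.506, 0.506 and 0.334.

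Of the 32 members that were tested and not called, 29 had a 95% interval within a 2-fold difference either way and 19 within a 1.5-fold difference, so for most of them a large change would have been visible at this depth while a change near 25% would not always. The 9 untested members had 13 to 101 counts over the 8 libraries: Gnaz (39), Gna14 (71), Gna15 (13), Gng8 (76), Gng13 (53), Rgs1 (49), Rgs7 (101), Rgs14 (41) and Rgs18 (13). Several of these are known from blood cells or neurons. They did not pass the filter on low counts and have no value in the main comparison. One of them, Rgs1, is singled out after its values were seen: it had 7, 1, 1 and 3 counts in FA and 7, 13, 9 and 8 counts in DE, and its CPM values did not overlap.

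The pathway around the members was read from 7 further lists with 45 genes, of which 38 were tested and 3 (7.89%) were called by the edgeR quasi-likelihood test (background 5.8%), all lower in DE (background 2.22%), with 0 higher (background 3.58%). The median log2 fold change of these 38 was 0.022, and 11 (28.9%) had an unadjusted p under 0.05 (background 25.6%). DESeq2, which called 10.9% of all genes, called 6 of the 38, 2 higher (Gpsm3 and Grk6) and 4 lower. Beside Kcnj5, the called genes were Snx13 and Ric8b. Snx13, a sorting nexin with an RGS domain, was at 94.9, 75.3, 91.9 and 87.98 CPM in FA and 72.1, 58.3, 58.5 and 66.2 CPM in DE, with separate groups. Its log2 fold change was -0.46 ± 0.11 (edgeR adjusted p = 0.0356), and the call was kept only without FA replicate 3 or DE replicate 1 among the libraries left out in turn (edgeR adjusted p up to 0.120). Ric8b, a chaperone that folds stimulatory Gα, was at 36.9, 35.8, 34.03 and 34.6 CPM in FA and 30.3, 25.6, 26.6 and 23.5 CPM in DE, also with separate groups (log2 fold change -0.41 ± 0.10, edgeR adjusted p = 0.0373). Its call was kept only without DE replicate 1 (edgeR adjusted p up to 0.121 without another library). With prefix as a term neither gene was called (edgeR adjusted p = 0.153 for Snx13 and 0.111 for Ric8b). Nor was either called with library totals alone as the scale (edgeR adjusted p = 0.056 for Snx13 and 0.067 for Ric8b). In the prefix 11 libraries only, the log2 fold changes were -0.34 for Snx13 and -0.40 for Ric8b (edgeR adjusted p = 0.205 and 0.156).

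No gene was called by the edgeR quasi-likelihood test among the receptor kinases and arrestins, the phospholipase C genes or the other subunit genes. Of the 7 receptor kinases and arrestins, which shut down receptors, 2 had an unadjusted p under 0.05 and DESeq2 called 1 (Grk6). Grk3 went from 68.6 ± 10.2 to 68.97 ± 12.1 CPM. Grk6, named after its values were seen, went from 20.4 ± 0.936 to 26.6 ± 2.47 CPM, with separate groups. Its log2 fold change was 0.38 ± 0.10, and it narrowly missed the call (edgeR adjusted p = 0.0509). The 4 phospholipase C genes downstream of q-class Gα had none at an unadjusted p under 0.05 and none by DESeq2, and Plcb4, the most abundant, went from 63.2 ± 14.6 to 58.99 ± 19.98 CPM. Of the 6 other subunit genes, 3 were tested, 1 had an unadjusted p under 0.05 and DESeq2 called 0. In the list of Ric8b, chaperones and activators, Gpsm1, which holds i-class Gα in its inactive form, went from 128 ± 12.4 to 112 ± 19.3 CPM (edgeR adjusted p = 0.367). Gpsm3, of the same family and named after its values were seen, went the other way, from 1.93 ± 0.208 to 3.13 ± 0.879 CPM, with separate groups (log2 fold change 0.72 ± 0.22, edgeR adjusted p = 0.0726), and was called by DESeq2 and the likelihood ratio test.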

How the data were processed

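RNA was measured in NCMs from 4 FA and 4 DE newborns, sequenced from poly-A RNA with a stranded kit. Per the study's methods, the authors aligned reads to mm10 with TopHat, marked but did not remove PCR duplicates and deposited raw fragment counts per Entrez gene from featureCounts; strand setting, counting annotation and treatment of shared reads are not given in the sources used here. The methods name 3 samples a group, while 4 per group were deposited, and all 8 were used.

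Symbols were assigned through RefSeq for 25275 of 27179 rows (92.995%). Genes were filtered with filterByExpr (minimum count 10), scaled by TMM and tested with the edgeR 4.0.16 quasi-likelihood test in R 4.3.3, with Benjamini-Hochberg adjustment over 14966 genes. CPM use TMM factors. CPM per kb use union exon lengths and GRCm38 positions from GENCODE. Alternatives (18) included DESeq2 1.42.0, other scalings and filters, the name prefix and leaving out each library. Between libraries of a group the biological coefficient of variation was 15.95%; no library pair agreed within sampling noise. The members and lists were chosen with earlier results of these data known. Members called, with separate groups, or among the 3 most abundant of a class, plus Gng12, are given in full. One of the pathway lists is not reported here beyond its part in the total.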

Additional observations from a re-analysis of the deposited data

Results flagged for a closer look

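In 3 of 70 groups of 4 libraries (35 members, FA and DE), 1 library stood far from the rest, with a gap over 0.829 of the group's whole range (Dixon's 95% limit for 4 samples). Chance gives this in about 1 of 20 groups. For Gnb2, FA replicate 3 was at 240.4 CPM and the other FA libraries were at 170.2 to 181 CPM, a gap of 0.844 of the range. For Gnb3, DE replicate 3 was at 1.84 CPM and the other DE libraries at 1.39 to 1.45 CPM, a gap of 0.852. For Gng4, FA replicate 6 was at 0.738 CPM and the other FA libraries at 0.428 to 0.452 CPM, a gap of 0.924.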

How the results depend on the processing

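The 3 called members kept their direction under all 18 alternatives. Gng11 was called in 11 of them (log2 fold change 0.57 to 0.98), Rgs11 in 15 (1.03 to 1.54) and Rgs16 in 10 (0.41 to 0.90). The called pathway genes also kept their direction. Kcnj5 was called in 12 (log2 fold change -0.51 to -0.39), Snx13 in 8 (-0.52 to -0.34) and Ric8b in 7 (-0.49 to -0.34). Members called numbered 6 with DESeq2 (which called 10.9% of all genes) and 5 with library totals alone (6.82% of all genes), against 3. With the 25% difference built into the test 1 was called (0.762% of all genes). With prefix as a term 0 were called (2.99% of all genes), with 11 at an unadjusted p under 0.05. In the prefix 11 libraries only 0 were called (1.75% of all genes), with 10 unadjusted. With 1 library left out 0 to 4 were called (1.53 to 7.93% of all genes). All genes called numbered 1633 with DESeq2, 1603 with the likelihood ratio test, 114 with the 25% built in, 448 with prefix as a term, 260 in prefix 11 only and 237 to 1168 with 1 library left out, against 868. Other pathway genes called numbered 6 with DESeq2, 5 with the likelihood ratio test and 2 with library totals alone, against 3. They numbered 4 with RLE or upper quartile scaling and with a filter at a mean of 1 CPM. With the 25% built in they numbered 0 (5 unadjusted), with prefix as a term 0 (7 unadjusted) and in prefix 11 only 0 (6 unadjusted). With 1 library left out they numbered 0 to 5. Of all called genes 61.8% were higher in DE, 78.7% with library totals, which moved the median of all genes by 0.0716, and 38.6% with the 25% built in. Fewer libraries enter the leave-one-out and prefix 11 fits; otherwise the cause was not tested.

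Signs turned, among genes that were not called, for Gna11 (0.0152) and Gnb5 (0.0265) with library totals. With prefix as a term they turned for Gnaq (0.025), Gnal (-0.0771), Gng4 (-0.22), Gng5 (-0.0155), Rgs19 (-0.11) and Plcb4 (0.26), and in prefix 11 only for the same 6 (0.0211, -0.0818, -0.22, -0.0208, -0.12 and 0.26). Leaving out 1 library gave log2 fold changes of -0.0195 to 0.0406 for Gnal, -0.16 to 0.18 for Gng2, -0.0009 to 0.12 for Gnai3, -0.12 to 0.0525 for Gnb5, -0.032 to 0.39 for Gng4, -0.0777 to 0.12 for Gnai1, -0.13 to 0.0389 for Gna11, -0.0872 to 0.11 for Grk3 and -0.28 to 0.0652 for Plcb4.

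No paired analysis was possible because the groups share only 1 replicate number (3). Depth limits the 9 untested members and widens the interval of low ones such as Rgs11. Litter is not known, and prefix 12 holds DE libraries only.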

Other observations

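Summed over the genes of a family, the i-class Gα level was 172, 181, 177 and 166 CPM per kb in FA and 189.7, 233, 212 and 199.6 CPM per kb in DE, separate between the groups, with Gnai2 as its main part. The q-class sum was 26.6 ± 1.30 CPM per kb in FA and 24.7 ± 0.997 in DE (SD, n = 4 each). The Gγ sum was 85.6, 96.8, 85.8 and 101 CPM per kb in FA and 112, 136, 122 and 119.5 CPM per kb in DE, also separate, with Gng11 as its largest part. The Gβ sum was 194 ± 17.1 CPM per kb in FA and 217 ± 16.5 in DE. The families were summed after the values were seen and no test was run on the sums.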
